A study of Mus musculus with 7 samples.

Results

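The STAT, IRF and SOCS regulators carry cytokine signals to the nucleus and shut them off again. The 9 genes described here, *Stat2*, *Stat3*, *Irf1*, *Irf2*, *Irf7*, *Irf8*, *Irf9*, *Socs1* and *Socs3*, are the rows with these names among the 38026 genes of a bulk RNA-seq table of subcutaneous mouse tumors. The tumors grew from 1242 KPC cells, a pancreatic ductal adenocarcinoma (PDA) line taken from a genetically engineered mouse in which Cre is driven by the *Pdx1* promoter, and were harvested 2 weeks after inoculation into C57BL/6 mice. The 4 sgScramble tumors (replicates 1 to 4) came from cells carrying Cas9 and a scrambled guide, and the 3 sgKrt19 tumors (replicates 5, 6 and 8) from cells carrying Cas9 and a guide against *Krt19*. The sources used here name no other treatment for either group. Both lines thus share the KPC alleles, the lentiviral Cas9 vector and the puromycin selection. Whether the inoculated cells were a polyclonal line or 1 clone, and which *Krt19* guide was used, is not given in the sources used here. The mice were bought at 6 weeks of age and kept for 2 weeks before an experiment, per the study's methods.

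In this pathway a cytokine binds its receptor, Janus kinases bound to the receptor phosphorylate STAT proteins, and the STATs enter the nucleus. Interferon gamma acts through a STAT dimer that binds a gamma-activated site (GAS), and *Irf1*, *Irf8* and *Socs1* are among its classical targets. Type I interferon assembles the complex ISGF3, which contains STAT2 and IRF9 and binds an interferon-stimulated response element (ISRE), and *Irf7* and the antiviral genes are among its targets. IL-6 family cytokines act mainly through STAT3, which induces *Socs3*. SOCS1 and SOCS3 bind receptors and kinases and end the signal.

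Promoter sequence around the motifs in these genes is shown first because the members differ in which of the 2 element types their promoters hold. RefSeq promoter windows of build GRCm38.p6, from 250 bases before to 50 bases after each start site, were found for 9 of 9 members (12 windows). Each stretch below is written 5′ to 3′ on the strand of its gene, with the matched motif in capitals.
Irf1, chr11:53769904-53769952, plus strand: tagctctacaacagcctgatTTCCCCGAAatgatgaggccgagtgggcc
Irf8, chr8:120736167-120736233, plus strand: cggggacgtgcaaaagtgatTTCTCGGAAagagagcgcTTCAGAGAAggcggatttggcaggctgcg
Socs3, chr11:117969492-117969540, minus strand: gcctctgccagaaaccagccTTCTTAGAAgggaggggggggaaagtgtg
Socs1, chr16:10785584-10785639, minus strand: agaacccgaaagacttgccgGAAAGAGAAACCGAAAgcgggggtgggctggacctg
Stat2, chr10:128270256-128270305, plus strand: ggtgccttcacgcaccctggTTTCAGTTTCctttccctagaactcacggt
Irf2, chr8:46739495-46739549, plus strand: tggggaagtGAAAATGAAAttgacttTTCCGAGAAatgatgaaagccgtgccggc

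The GAS-type motif searched was TTCNNNGAA, which reads the same on both strands, and the ISRE-type motif was GAAA, any 2 bases and GAAA again, searched on both strands. *Irf1*, *Irf8*, *Socs3* and *Irf2* held the GAS-type motif, at 90 bases upstream of the start site in *Irf1*, at 171 and 153 bases in *Irf8*, at 154 in *Socs3* and at 224 in *Irf2*. *Socs1*, *Stat2* and *Irf2* held the ISRE-type motif, as 2 overlapping matches in *Socs1* at 83 and 77 bases upstream, as 1 match at 241 bases in *Irf2*, and as 1 match on the opposite strand at 222 bases in *Stat2*. *Irf2* was the member whose window held both types. Of all 32851 mouse promoter windows of this length, 8.30% held the GAS-type and 3.44% the ISRE-type motif. These letters were not found in the windows of *Stat3*, *Irf7* and *Irf9*. A match is a description of the sequence and not evidence of binding.

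**Figure D1:**
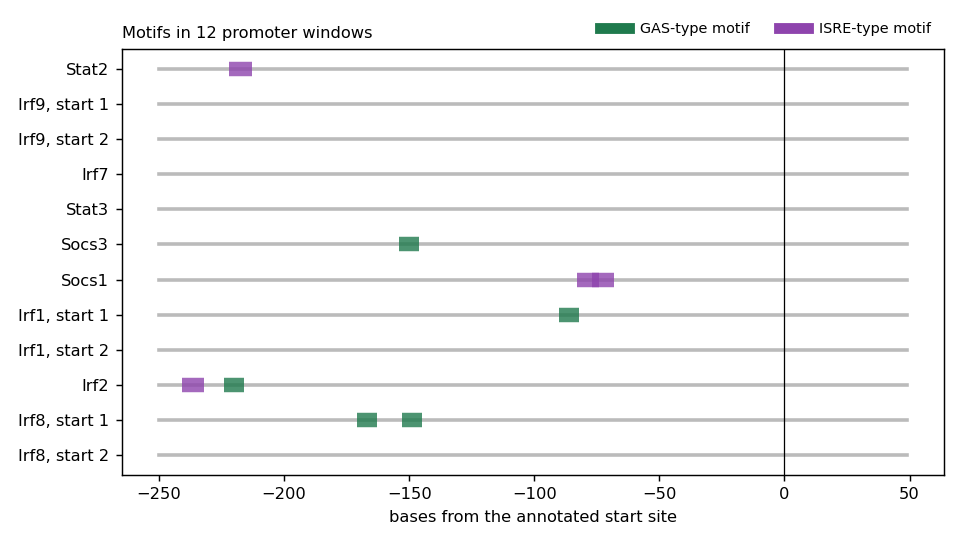
Position of GAS-type (green) and ISRE-type (purple) motif matches, in bases from the annotated start site, in the 12 RefSeq promoter windows of the 9 members (gray lines; genes with 2 start sites have 2 lines). Matches lie in the windows of 6 members, and the windows of *Stat3*, *Irf7* and *Irf9* have none.

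Values are normalized read counts, that is, reads per gene divided by 1 scaling factor for each library. Each library held 40781199 to 44972100 reads on genes, and the members had 278 to 8819 reads in each library, so all 9 passed the filter on low values in every library. *Krt19*, the edited gene, was at 25574, 21179, 27618 and 17841 in sgScramble 1 to 4 and at 1606, 1960 and 2470 in sgKrt19 5, 6 and 8 (log2 fold change −3.52, SE 0.183, limma adjusted p = 1.74e-05). Markers of epithelial cancer cells were present in both groups (4 of 7 called, all higher), with summed levels of 119355 to 156961 in sgScramble and of 246353 to 260142 in sgKrt19 tumors. These sums consist mostly of the keratins *Krt8* (means 55494 and 103416) and *Krt18* (49260 and 95589). *Cdh1* and *Krt20* were also called, and *Epcam*, *Cldn7* and *Cldn4* were not (log2 fold changes 0.064, 0.47 and −1.23). The sums were also higher for T cells (742 to 1349 against 4145 to 7394) and for skeletal muscle (273 to 2553 against 19373 to 28535), and in each of these lists 8 of 8 genes were called higher. Of the sgScramble tumors, only sgScramble 3 reached the filter value of 10 for *Ckm*, *Myh1*, *Myh4*, *Tnnt3* and *Mb*. These muscle genes thus entered the test through the sgKrt19 tumors, and their calls depend on that filter. Of 21322 genes tested, limma with Benjamini-Hochberg adjustment called 34% (adjusted p under 0.05), 17.9% higher and 16% lower in sgKrt19 tumors. Scaling by library size alone moved the median log2 fold change of all genes from 0.0072 to −0.21 and the split of calls from 3820 higher and 3420 lower to 2177 higher and 5727 lower.

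Of the 9 members, 5 rose in sgKrt19 tumors (*Irf7*, *Socs1*, *Irf1*, *Irf8* and *Irf9*) and none was called lower, beside the background of 34% called in either direction and 17.9% called higher. The median log2 fold change of the members was 0.56. In 6 members, the 5 that rose and *Stat3*, which was lower in sgKrt19 tumors, the groups did not overlap, beside 41.1% of all tested genes. *Irf1*, *Irf7*, *Irf8* and *Socs1* kept adjusted p under 0.05 in all 16 alternative analyses, whereas *Irf9* lost it in 6. The libraries did not contribute alike. sgScramble 3 was the lowest library of its group for 6 of 9 members, and sgKrt19 8 the highest of its group for 8 of 9. In sgKrt19 8 the T cell sum, 4145, was the lowest of the 3 sgKrt19 tumors, and in sgScramble 3 the muscle sum, 2553, was the highest of the 4 sgScramble tumors.

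**Figure D2:**
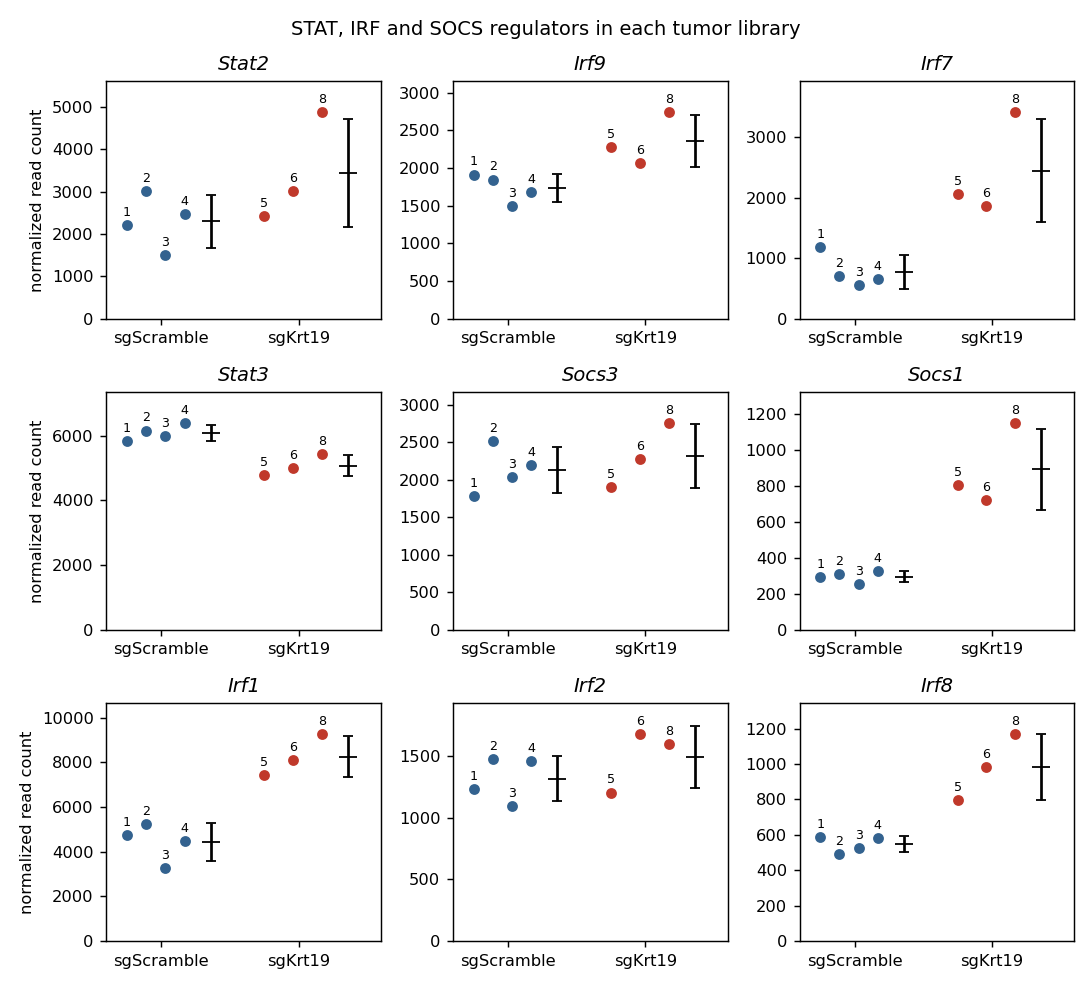
Normalized read count (linear axis from 0) of each member in each library, with the replicate number beside each point; the bar is the mean with SD (n = 4 sgScramble, n = 3 sgKrt19). The groups are apart for *Irf9*, *Irf7*, *Stat3*, *Socs1*, *Irf1* and *Irf8* and overlap for *Stat2*, *Socs3* and *Irf2*.

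*Irf1* (chr11:53770014-53778374, plus strand), a transcription factor that interferon gamma induces and that switches on antigen presentation genes, was at 4762, 5220, 3260 and 4498 in sgScramble 1 to 4 and at 7429, 8097 and 9261 in sgKrt19 5, 6 and 8. Every sgKrt19 tumor lay above every sgScramble tumor. The means were 4435 ± 838 (SD, n = 4) and 8262 ± 927 (SD, n = 3), a 1.86-fold difference (log2 fold change 0.91, SE 0.162, limma adjusted p = 0.00236). *Irf1* was the most abundant member per kilobase of exon in both groups, at 1115 ± 211 and 2078 ± 233 normalized reads per kb. Its exons overlap *Gm17334* on the opposite strand over 3.40% of their bases.

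*Irf2* (chr8:46739732-46847458, plus strand), which binds the same DNA elements as IRF1 and can act against it, was at 1234, 1479, 1096 and 1463 in sgScramble and at 1205, 1677 and 1599 in sgKrt19 tumors. The groups overlapped, with sgKrt19 5 inside the sgScramble range. The log2 fold change was 0.18 (95% interval −0.16 to 0.52, limma adjusted p = 0.391), and it was −0.040 with scaling by library size alone. Within each library, *Irf1* exceeded *Irf2* by 1.95, 1.82, 1.57 and 1.62 on the log2 scale in sgScramble 1 to 4 and by 2.62, 2.27 and 2.53 in sgKrt19 5, 6 and 8. The mean excess was 1.74 ± 0.175 and 2.48 ± 0.183, a difference of 0.74, with no overlap between groups (exact permutation test, two-sided, p = 0.0571, adjusted p = 0.143 over 5 differences). With 4 and 3 libraries there are 35 assignments, and 0.0571 is the smallest p this test can give.

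*Irf8* (chr8:120736358-120756694, plus strand), a factor of myeloid, dendritic and B lineage cells that interferon gamma also induces, was at 589, 492, 527 and 583 in sgScramble and at 794, 984 and 1168 in sgKrt19 tumors. The groups were apart, and the spread was wider in the sgKrt19 tumors (548 ± 46.5 and 982 ± 187). On the log2 scale the increase was 0.83 ± 0.147 (SE; limma adjusted p = 0.00239). In bulk tumors, more cells of a type and more RNA per cell cannot be told apart. Leukocyte markers were also higher in the sgKrt19 group. The summed leukocyte markers were 12010 to 16683 in sgScramble and 20973 to 28424 in sgKrt19 tumors, with 8 of 8 genes called higher. Type 1 dendritic cell markers summed to 539 to 744 and 876 to 1234 (3 of 7 called, all higher), macrophage and monocyte markers to 18789 to 26216 and 25019 to 30482 (4 called higher and 1 lower of 9), and B cell markers to 58.4 to 113 and 60.9 to 87.9 (0 of 2 tested genes called). These counts stand beside 17.9% of all tested genes called higher and 16% called lower. The macrophage and monocyte genes called higher were *C1qa*, *C1qb*, *C1qc* and *Ly6c2*, and *Mrc1* was called lower. *Adgre1*, *Csf1r*, *Cd68* and *Ccr2* were not called (log2 fold changes 0.019, 0.051, 0.10 and −0.093). Of the dendritic list, *Xcr1*, *Clec9a* and *Itgae* (means 83.0 and 248) were called. *Wdfy4*, *Batf3*, *Flt3* and *Zbtb46* were not (log2 fold changes 0.68, 0.13, 0.10 and 0.11).

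The log2 level of *Irf8* minus the mean log2 level of the leukocyte markers in the same library was −1.53, −1.37, −1.39 and −1.57 in sgScramble 1 to 4. The corresponding differences were −1.95, −1.64 and −1.01 in sgKrt19 5, 6 and 8, on both sides of the sgScramble range. The mean difference between groups was −0.071 (exact permutation test, two-sided, p = 0.686, adjusted p = 0.686), and it was 0.14 without sgKrt19 replicate 5 and −0.33 without sgKrt19 replicate 8. In sgKrt19 8 the leukocyte sum was the lowest of the 3 sgKrt19 tumors, 20973, and *Irf8* the highest. The part of leukocyte content in the rise of *Irf8* was not tested beyond this comparison.

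*Stat2* (chr10:128270559-128292849, plus strand), the STAT particular to type I and III interferon signaling, was at 2206, 3013, 1512 and 2460 in sgScramble and at 2417, 3018 and 4880 in sgKrt19 tumors. The groups overlapped, since sgKrt19 5 lay below sgScramble 2 and 4. The log2 fold change was 0.56 (SE 0.262, 95% interval −0.02 to 1.14, limma adjusted p = 0.120). It was 0.28 without sgKrt19 replicate 8 and 0.37 without sgScramble replicate 3.

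*Irf9* (chr14:55603571-55610030, plus strand), the DNA-binding subunit of ISGF3, was at 1914, 1848, 1496 and 1683 in sgScramble and at 2282, 2064 and 2744 in sgKrt19 tumors. All 3 sgKrt19 tumors were higher than all 4 sgScramble tumors, with means of 1735 ± 187 and 2363 ± 347. On the log2 scale the increase was 0.44 ± 0.131 (SE; limma adjusted p = 0.0268). The limma adjusted p passed 0.05 without sgScramble replicate 3 (0.0613), sgScramble replicate 4 (0.0595), sgKrt19 replicate 5 (0.0566) or sgKrt19 replicate 8 (0.101, log2 fold change 0.33). It was 0.217 with scaling by library size alone, where the log2 fold change was 0.23. The log2 difference of *Irf9* to *Stat2* averaged −0.37 ± 0.314 in sgScramble and −0.49 ± 0.377 in sgKrt19 tumors (exact permutation test, two-sided, p = 0.571, adjusted p = 0.686). Exons of *Irf9* overlap *Rnf31* on the same strand over 2.28% of their bases.

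*Irf7* (chr7:141262706-141266481, minus strand), the factor that amplifies type I interferon production, had the largest log2 fold change of the 9 members. It was at 1182, 707, 549 and 647 in sgScramble 1 to 4 and at 2066, 1863 and 3416 in sgKrt19 5, 6 and 8. The groups were apart even though sgScramble 1 stood above the other 3 sgScramble tumors and sgKrt19 8 above the other 2 sgKrt19 tumors. The means were 772 ± 282 and 2448 ± 844, a 3.17-fold difference (log2 fold change 1.68, SE 0.270, limma adjusted p = 0.00141). Leaving out 1 library at a time gave log2 fold changes of 1.41, without sgKrt19 replicate 8, to 1.90, without sgScramble replicate 1. *Irf7* is made at high level by plasmacytoid dendritic cells. Of the 3 tested markers of these cells 0 were called, beside the background of 34% of all tested genes. With so few markers this count does not show whether these cells changed. The markers had sums of 2717 to 3831 and 2509 to 2853 that consist mostly of *Tcf4*. The other 2 markers were too low to test. *Siglech*, the most specific of the list, was at 2.79, 1.98, 1.83 and 2.78 in sgScramble and at 6.94, 7.0 and 14.7 in sgKrt19 tumors, which is 2 to 14 reads a library, with the groups apart. *Ccr9* was at 5.12 ± 3.23 and 10.1 ± 4.86. The part of these cells in the rise of *Irf7* was not tested.

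*Socs1* (chr16:10782240-10785536, minus strand), the inhibitor of JAK kinases that limits interferon gamma signaling, had the smallest adjusted p of the members. It was at 292, 308, 254 and 327 in sgScramble and at 806, 720 and 1148 in sgKrt19 tumors. The lowest sgKrt19 tumor, at 720, stood well above the highest sgScramble tumor, at 327. The means were 295 ± 31.2 and 891 ± 226, a 3.02-fold difference (log2 fold change 1.57, SE 0.173, limma adjusted p = 0.000198). The log2 level of *Socs1* minus that of *Irf1* was −4.02, −4.08, −3.68 and −3.78 in sgScramble 1 to 4 and −3.20, −3.49 and −3.01 in sgKrt19 5, 6 and 8. The group means, −3.89 ± 0.193 and −3.23 ± 0.241, differed by 0.65 with no overlap between groups, at the smallest p the design allows (exact permutation test, two-sided, p = 0.0571, adjusted p = 0.143).

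*Stat3* (chr11:100885098-100939540, minus strand), the STAT of IL-6 family cytokines, was the member with a negative log2 fold change. It was at 5822, 6156, 5986 and 6383 in sgScramble and at 4788, 5004 and 5415 in sgKrt19 tumors. All 3 sgKrt19 tumors were below all 4 sgScramble tumors, but the difference was small (log2 fold change −0.26, SE 0.0987, 95% interval −0.48 to −0.046) and did not pass the threshold (limma adjusted p = 0.0613). DESeq2 on the recovered reads gave an adjusted p of 0.0229, and limma with scaling by library size alone gave −0.48 with an adjusted p of 0.0117.

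*Socs3* (chr11:117966079-117970047, minus strand), the inhibitor that STAT3 induces and that binds the shared IL-6 family receptor chain, was at 1788, 2516, 2030 and 2201 in sgScramble and at 1910, 2275 and 2755 in sgKrt19 tumors. The groups overlapped (log2 fold change 0.11, 95% interval −0.23 to 0.45, limma adjusted p = 0.590). The sign turned without sgKrt19 replicate 8 (−0.022) and with scaling by library size alone (−0.10). The log2 level of *Socs3* minus that of *Stat3* was −1.70, −1.29, −1.56 and −1.54 in sgScramble 1 to 4 and −1.33, −1.14 and −0.97 in sgKrt19 5, 6 and 8. The groups overlapped here too, since the value of sgScramble 2 fell between those of sgKrt19 5 and 6 (exact permutation test, two-sided, p = 0.114, adjusted p = 0.190).

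**Figure D3:**
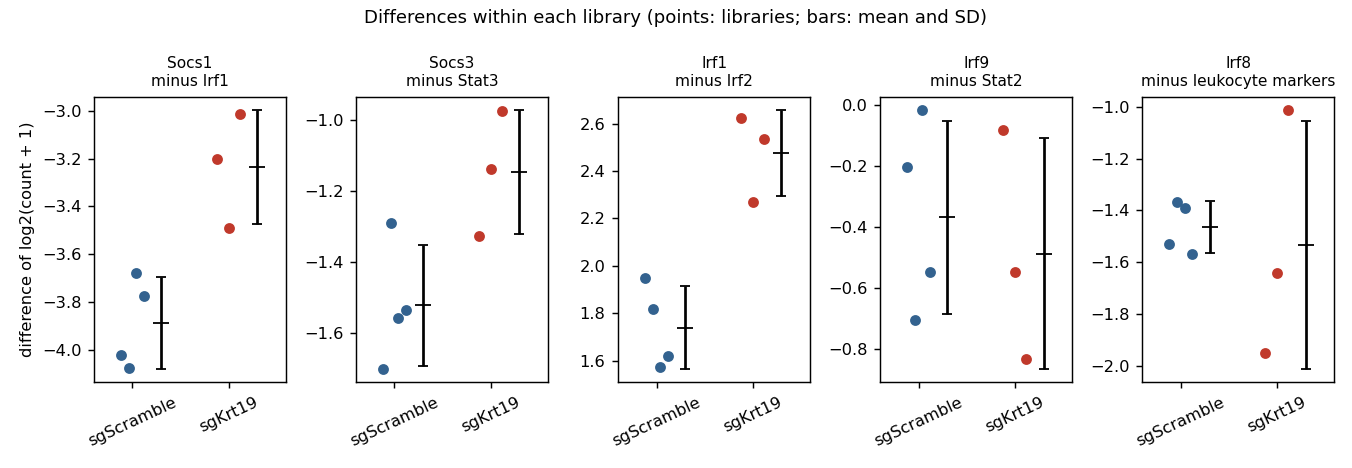
Difference of log2(normalized count + 1) between 2 genes, or between *Irf8* and the mean of 8 leukocyte markers, within each library (points), with mean and SD of 4 sgScramble and 3 sgKrt19 libraries. The groups are apart for *Socs1* minus *Irf1* and *Irf1* minus *Irf2* and overlap in the other 3 panels, and the axes do not start at 0.

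Per kilobase of exon, the members could be put in order of level within each group. In sgScramble tumors the order was *Irf1* (1115), *Socs3* (738), *Stat3* (639), *Stat2* (388), *Irf9* (322), *Irf7* (204), *Irf2* (178), *Socs1* (102) and *Irf8* (77.6 normalized reads per kb). Only the steps from *Stat3* to *Stat2*, from *Irf2* to *Socs1* and from *Socs1* to *Irf8* separated the ranges of neighbors. In sgKrt19 tumors the order was *Irf1* (2078), *Socs3* (800), *Irf7* (648), *Stat2* (580), *Stat3* (532), *Irf9* (439), *Socs1* (306), *Irf2* (202) and *Irf8* (139). Here only the steps from *Irf1* to *Socs3* and from *Socs1* to *Irf2* separated neighbors. *Socs1* thus stood below *Irf2* in sgScramble and above it in sgKrt19 tumors, and the ranges of this pair did not overlap in either group.

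Another 14 STAT, IRF and SOCS family genes were tested beside the members, and 5 were called (35.7%, near the background of 34%), 2 higher and 3 lower, with a median log2 fold change of −0.046. *Stat4*, which transmits IL-12 signals, rose from 70.3 ± 15.1 to 125 ± 3.85 (log2 fold change 0.85, limma adjusted p = 0.0142), and *Irf5*, of myeloid and B cells, from 1381 ± 57.6 to 1743 ± 68.7 (log2 fold change 0.34, limma adjusted p = 0.0226). With scaling by library size alone neither rise was called (*Stat4* 0.64, limma adjusted p = 0.0521; *Irf5* 0.12, limma adjusted p = 0.417), and *Irf5* also lost its call without sgScramble replicate 2, 3 or 4 or without sgKrt19 replicate 6 or 8 (limma adjusted p = 0.0501 to 0.0695). Exons of *Stat4* share 26.7% of their bases with *Gm28177* on the same strand, and those of *Irf5* share 14.1% with *Tnpo3* on the opposite strand. *Stat5a* and *Stat5b*, the STATs of growth hormone, prolactin and IL-2, fell by 0.62 and 0.54 on the log2 scale (limma adjusted p = 0.00417 and 0.00393), and *Socs7* fell by 0.55 (limma adjusted p = 0.00794). For these 3 all sgKrt19 tumors lay below all sgScramble tumors. *Stat5b* (chr11:100780731-100850724) and *Stat5a* (chr11:100859351-100885169) lie beside *Stat3*, on the chromosome of the edited gene *Krt19* (chr11:100140810-100148665). The part of this position in the levels of *Stat5b*, *Stat5a* and *Stat3* was not tested.

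**Figure D4:**
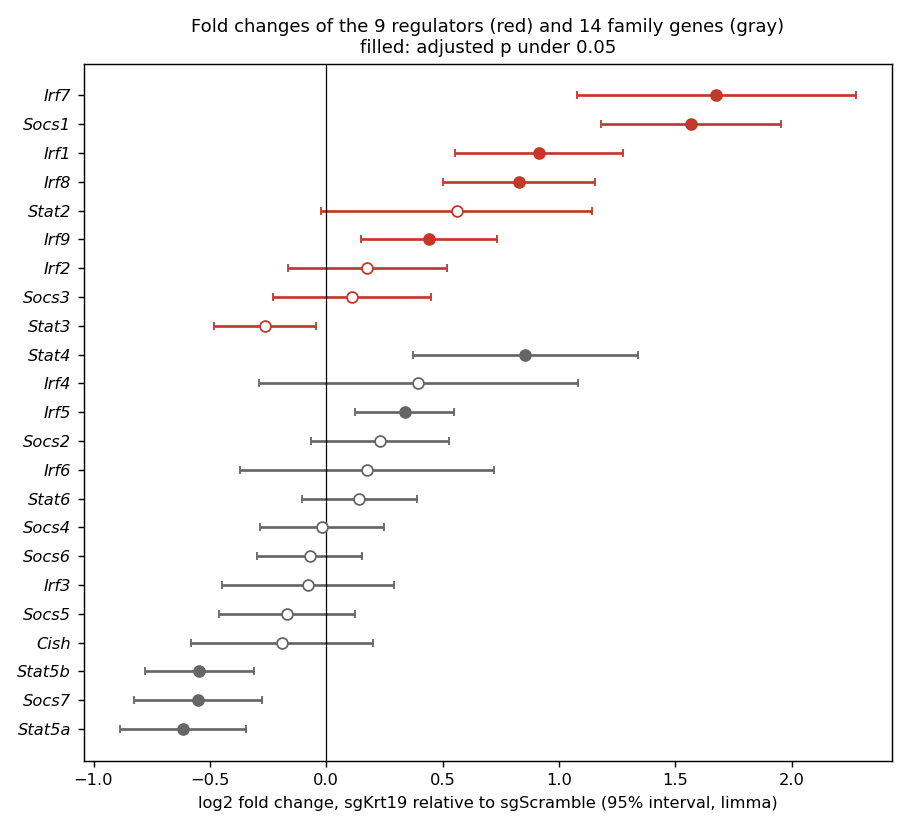
Log2 fold change (sgKrt19 relative to sgScramble, x axis) with the 95% interval from limma for the 9 members (red) and the 14 other family genes (gray); filled points have adjusted p under 0.05. Among the members 5 filled points lie to the right of 0 and none to the left, and among the other family genes 2 lie to the right and 3 to the left.

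Among the cytokines that signal through STATs, 12 of the 19 in the table were tested and 7 were called (58.3%, beside the background of 34%), 5 higher and 2 lower (median log2 fold change 0.42). *Ifng*, which encodes interferon gamma, was at 40.9, 24.7, 22.8 and 29.7 in sgScramble and at 187, 147 and 200 in sgKrt19 tumors (log2 fold change 2.57 with SE 0.248 and a limma adjusted p of 9.67e-05). Reads over 25.9% of its exon bases could equally belong to *Gm49751*, which overlaps it on the same strand. *Il10*, an anti-inflammatory cytokine, rose from 6.06 ± 2.08 to 18.1 ± 3.44 (log2 fold change 1.47, limma adjusted p = 0.0123), and *Il23a* from 11.4 ± 5.98 to 27.4 ± 8.28 (log2 fold change 1.26, limma adjusted p = 0.0367). *Il10* was under 10 in all sgScramble tumors and over 10 in all sgKrt19 tumors. It thus passed the filter on low values only through the group where it is high. Its p-value and its place among the 5 called higher depend on that filter. The IL-6 family cytokines *Clcf1* and *Lif* fell by 0.77 and 0.47 on the log2 scale (limma adjusted p = 0.0150 and 0.0399). *Ifnb1* had 0 to 6 reads in a library and was not tested, and *Ifnk* and *Ifnl2* had 0 reads in all 7 libraries, which allows normalized counts of up to 2.74 to 3.47. The 2 rows named *Clcf1* hold identical values. Without sgKrt19 replicate 5 or without sgKrt19 replicate 6, 3 of the cytokines were called, and the calls of *Il23a*, *Clcf1* and *Lif* were lost. *Il10* no longer passed the filter on low values in these fits and was not tested. *Il23a* and *Lif* also lost their calls without sgScramble replicate 1, 2 or 4.

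Of 18 receptor chains, 9 were called (50%, beside the background of 34%), 8 higher and 1 lower (median log2 fold change 0.23). The background was 17.9% called higher and 16% called lower. With scaling by library size alone 5 were called higher and 1 lower, with a median of 0.015, and *Ifngr1* was not called (limma adjusted p = 0.0540). The 3 largest rises were in chains of lymphocyte cytokine receptors, *Il2rb* (log2 fold change 1.77), *Il2rg* (1.25) and *Il15ra* (1.03), with limma adjusted p of 7.09e-05, 0.000390 and 0.00285. Exons of *Il2rg* share 30.5% of their bases with *Gm20489* on the same strand. *Ifngr1*, the ligand-binding chain for interferon gamma, rose from 5260 ± 402 to 7403 ± 1007 (log2 fold change 0.49, limma adjusted p = 0.0124). *Ifnar1*, a chain of the type I interferon receptor, was at 2539 ± 102 and 2532 ± 72.0 (log2 fold change −0.0031, limma adjusted p = 0.983). *Osmr*, the oncostatin M receptor chain, fell by 0.60 on the log2 scale (limma adjusted p = 0.0103). The rise of *Il2rb* and *Il2rg* came with the rise of the T cell markers given above, and the part of T cell number was not tested.

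Of the 4 Janus kinases, limma called 0 (no kinase had an unadjusted p under 0.05, and edgeR and DESeq2 called 0). The log2 fold changes of *Jak1* and *Jak2* were −0.065 and −0.023 (limma adjusted p = 0.666 and 0.876). Of 9 other restraints on the pathway, 5 were called (55.6%, beside the background of 34%), 2 higher and 3 lower (median −0.060). Of all tested genes, 17.9% were called higher and 16% lower. *Usp18*, which blocks the type I interferon receptor and is itself interferon-induced, rose from 531 ± 245 to 1202 ± 231 (log2 fold change 1.27, limma adjusted p = 0.0108), and *Ptpn6*, a phosphatase of blood cells, rose by 0.46 (limma adjusted p = 0.0217). *Ptpn11*, *Pias3* and *Pias2* fell by 0.46, 0.42 and 0.37 on the log2 scale (limma adjusted p = 0.0124, 0.0271 and 0.0323). This count fell to 2 without sgScramble replicate 2, and to 3 without sgScramble replicate 4 or without any 1 of sgKrt19 replicates 5, 6 and 8. *Usp18* and *Ptpn11* lost their calls in 0 of the 16 alternatives, *Ptpn6* in 4, and *Pias2* and *Pias3* in 6 each.

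Genes listed as targets of the 3 branches were counted, from lists chosen with earlier results of these data known. Which cytokine acted on a listed gene was not tested. Of 14 interferon gamma targets, 13 were called (92.9%, beside a background of 17.9% called higher), all higher, with a median log2 fold change of 1.50. The largest were *Ido1* (3.84), which degrades tryptophan, and the T cell chemokines *Cxcl9* (2.27) and *Cxcl10* (2.06), with limma adjusted p of 0.000201, 7.09e-05 and 9.21e-05. *Ido1* was at 842, 756, 217 and 612 in sgScramble and at 4993, 8774 and 10525 in sgKrt19 tumors. Of 15 antiviral targets of type I interferon, 13 were called (86.7%), all higher, with a median of 1.29, led by *Mx1* (2.04), *Oas2* (2.03) and *Oas3* (1.78), with limma adjusted p of 0.00158, 0.00169 and 0.00235. *Mx1* was at 118, 107, 80.4 and 93.7 in sgScramble and at 246, 352 and 786 in sgKrt19 tumors, so that sgKrt19 8 was again the highest. Over the 16 alternatives, 11 to 14 of the interferon gamma targets and 9 to 13 of the antiviral targets were called. With scaling by library size alone these counts were 11 and 9. The targets named in this paragraph kept their calls in all 16.

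Of 14 targets of STAT3, 12 were tested and 1 was called (8.33%, beside the background of 34%), with a median log2 fold change of 0.072. *Lcn2*, an iron-sequestering protein of epithelia and neutrophils, fell from 2215 ± 1036 to 883 ± 407 (log2 fold change −1.30, limma adjusted p = 0.0200). Neutrophil markers summed to 365 to 543 in sgScramble and to 1057 to 1160 in sgKrt19 tumors, with 5 of 5 tested genes called higher. Of these, *Retnlg* reached the filter value of 10 in sgScramble 1 only among the sgScramble tumors, so its call depends on that filter. For *Csf3r* the groups overlapped, and its call was lost in 7 of the 16 alternatives. *Ly6g*, the marker not tested, had 1 to 5 reads in a library, and its groups overlapped (2.10 ± 1.75 and 3.66 ± 2.44). Without sgKrt19 replicate 8, 0 of the STAT3 targets were called. Without sgKrt19 replicate 6 the call of *Lcn2* was also lost (log2 fold change −1.09, limma adjusted p = 0.0739), and *Saa3*, an acute phase gene, was called higher instead (1.89, limma adjusted p = 0.0404). Without sgScramble replicate 1, *Pim1*, a kinase gene, was called higher beside *Lcn2* (0.33, limma adjusted p = 0.0438). The targets not tested, *Fgb* and *Fgg*, had at most 8 and 14 reads in a library. *Fgb* was at 7.43, 0.99, 4.57 and 1.85 and *Fgg* at 13.0, 2.96, 12.8 and 1.85 in sgScramble 1 to 4. Both were at 0 in sgKrt19 5, 6 and 8. *Saa3*, *Pim1*, *Fgb* and *Fgg* are named after their values were seen. The *Oas*, *Mx*, *Gbp* and *Ifit* genes belong to families of close copies among which reads can be shared.

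**Figure D5:**
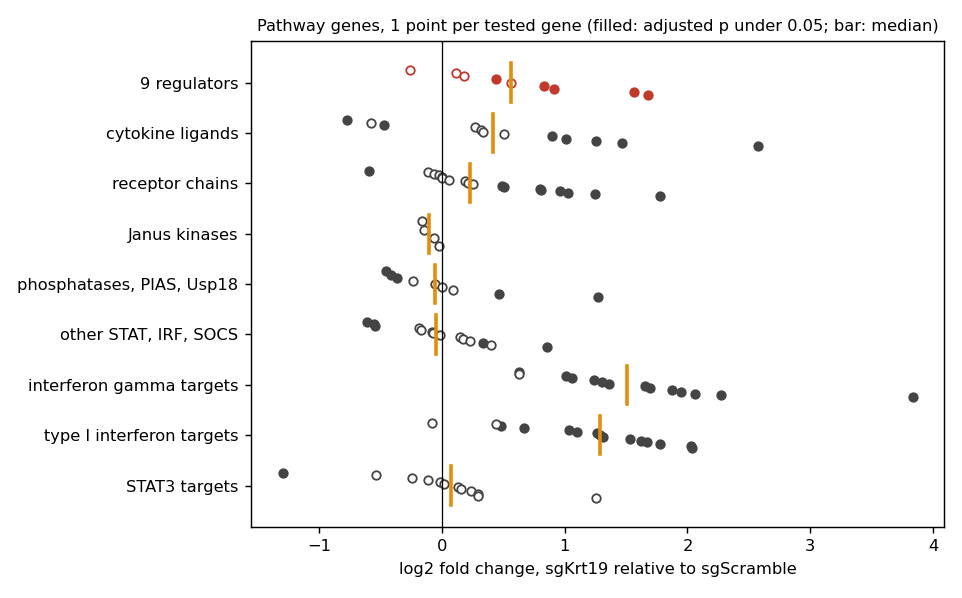
Log2 fold change (sgKrt19 relative to sgScramble, x axis) of each tested gene of the 9 members (red) and of the pathway lists (black); filled points have adjusted p under 0.05 in limma and orange bars mark medians. Medians are 1.50 and 1.29 for the 2 lists of interferon targets, 0.56 for the members and 0.072 for the STAT3 targets.

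The genes most like *Irf7*, *Socs1* and *Irf1*, the 3 members with the largest changes, were found among 12549 candidates by the root mean square difference of their centered log2 levels over the 7 libraries. For *Irf7* these were *Oas1a* (0.132) and *Oas1g* (0.132), close copies that encode sensors of double-stranded RNA. For *Socs1* they were the nucleoside transporter gene *Slc28a2* (0.145) and *Fst* (0.154), which encodes the activin antagonist follistatin. For *Irf1* they were *Trim12c* (0.0960) and *Parp9* (0.102). *Oas1a* was at 549 ± 231 and 1621 ± 356 and *Parp9* at 1955 ± 335 and 3289 ± 201 in sgScramble and sgKrt19 tumors.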

How the data were processed

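Total RNA of subcutaneous tumors was sequenced as single reads after TruSeq Stranded Total RNA preparation. The deposited table holds 1 column per library (4 sgScramble, 3 sgKrt19) of signal values that the authors made by dividing read counts per gene by a size factor. The submitters' processing notes name build mm10. The aligner, the counting program and its use of strand are not given in the sources used here. Dividing each column by the worth of 1 read gave whole reads for 100% of values (tolerance 0.1 read), for 40781199 to 44972100 reads per library. All precision statements cover counting error or the spread between these tumors only. Of the gene IDs, 97.55% matched GENCODE M21 (GRCm38), which gave coordinates and exon lengths.

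Genes reaching 10 in 3 or more libraries entered the test, which was limma 3.58.1 (R 4.3.3) on log2(value + 1), with trended moderation and Benjamini-Hochberg adjustment. Fold changes are on this scale and understate those of low genes. Alternatives were edgeR 4.0.16 and DESeq2 1.42.0 on recovered reads, other scalings, pseudocounts of 0.5 and 5, other filters, no trend, and leaving out each library. Differences within libraries were compared by exact permutation. The members and lists were chosen with earlier results of these data known. Of each list, the called genes with the 3 largest changes in each direction are named, plus *Ifng*, *Jak1*, *Jak2*, *Ifngr1* and *Ifnar1*. For likeness, 2 genes with a mean of at least 100 were named for each of the 3 most changed members. *Ifnl3* was not analysed here, and 1 family gene is not reported here. *Clcf1* and *Irgm1* have 2 rows each. For *Irgm1* the row with the higher mean was used, and for *Clcf1* the rows are identical.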

Additional observations from a re-analysis of the deposited data

How the results depend on the processing

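Of the 9 members, *Irf1*, *Irf7*, *Irf8* and *Socs1* stayed called and higher in all 16 alternatives, and *Stat2*, *Irf2* and *Socs3* stayed uncalled in all 16. *Irf9* was uncalled in 6 of 16, including a fit without the trend (adjusted p = 0.0576 in limma). *Stat3* became called in 2, DESeq2 and scaling by library size alone. The number of members called was 4 to 6. With scaling by library size alone the log2 fold changes of *Irf2* and *Socs3* turned to −0.040 and −0.10, and that of *Socs3* ran from −0.022 (without sgKrt19 replicate 8) to 0.24 (without sgKrt19 replicate 5) when 1 library was left out. With scaling by library size alone, which moved the median of all genes to −0.21, 3 of the other family genes were called, 0 higher and 3 lower, where 2 higher and 3 lower were called in the main analysis. In the main scaling, with 1 library left out, the difference of *Irf8* to leukocyte markers ran from −0.33 (without sgKrt19 replicate 8) to 0.14 (without sgKrt19 replicate 5), and that of *Irf9* to *Stat2* from −0.32 (without sgKrt19 replicate 5) to 0.053 (without sgKrt19 replicate 8). The cause of these turns was not tested.

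The STAT3 targets called, 1 in the main analysis, were 2 with TMM scaling, 2 with DESeq2, 2 with a filter at 50, 3 with no filter, where 14 were tested, and 0 without the trend. *Pim1*, higher, was the added call with TMM scaling, DESeq2 and the filter at 50. With no filter, *Fgb* and *Fgg*, at 0 in all sgKrt19 tumors, entered the test. The other restraints called, 5 in the main analysis, were 3 without the trend. Leaving out 1 library gave 0 to 2 STAT3 targets, 2 to 4 other restraints, 3 to 7 cytokines and 4 to 5 members, and 4861 to 7714 of all genes, where 7240 were called in the main analysis. The cause was not tested beyond the smaller number of libraries. No paired analysis was possible because the groups share no replicate numbers.

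With 4 and 3 tumors, the permutation tests cannot reach 0.05. The labels name replicates but do not say whether the tumors came from separate experiments, so p-values measure the spread between these tumors. Depth limits *Il10*, *Il23a* and *Ifnb1*, which had few reads in each library, and not the members.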
